A study of Bos taurus and Mus musculus with 16 samples.

Results

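A set of 34 genes of the integrated stress response and the unfolded protein response was followed in mouse morulae and bovine blastocysts in which the gene of the transcription factor TEAD4 had been targeted at the zygote stage. The members were taken by symbol, case ignored, from a list of symbols, which falls into an ATF4 arm of 17 genes and an endoplasmic reticulum (ER) folding arm of 17 genes. The mouse table held 32 of the 34 among 16655 genes, with no row for Atf3 or Chac1, and the bovine table held 32 among 14852 genes, with no row for ATF5 or CEBPB.

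Edited mouse morulae had received BE3 mRNA and a mix of Tead4 sgRNAs (n = 2), and control mouse morulae BE3 mRNA alone (n = 2), both collected at day 3.25 after fertilization. Edited bovine blastocysts had received BE3 mRNA and a mix of TEAD4 sgRNAs (n = 6), and control bovine blastocysts BE3 mRNA alone (n = 6), both collected at day 7.0. BE3 is a cytosine base editor, a Cas9 nickase joined to a deaminase, so that the editor was present in the control embryos too and the effect of the guides at TEAD4 cannot be told apart from any other effect of the guides. The sources used here give no strain, no number of embryos per sample and no word on separate injections, so that the p-values rest on a spread between samples that could be technical.

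Polyadenylated RNA was sequenced after Smart-seq2, a method for small amounts of RNA, and values are normalized reads, that is, reads assigned to a gene divided by a size factor of the sample. Libraries held 4386305 to 6109425 assigned reads in edited and 3642907 to 4187826 in control morulae, and 817329 to 2259064 in edited and 934078 to 2501592 in control blastocysts. A gene with a mean under 10 normalized reads was not tested, which left out Vldlr in both species and ERN1 in cattle. The targeted gene checked the labels: Tead4 had 57.2 and 76.5 normalized reads in edited morulae, against 458 and 519 in control morulae (log2 fold change -2.86 ± 0.25 (SE), limma adjusted p = 5.37e-09). TEAD4 lay between 22.6 and 65.6 normalized reads in edited blastocysts and between 61.2 and 125 in control blastocysts, a log2 difference of -1.25 ± 0.25 that did not pass after adjustment (limma adjusted p = 0.235). The summed level of 6 trophectoderm markers was 1973 to 2170 normalized reads in edited and 6205 to 7160 in control morulae. Of the 6, 4 fell, where 8.38% of all tested genes were lower. Tfap2c and Eomes differed by 0.18 and 0.46 on the log2 scale and did not pass. The 4 inner cell mass markers summed to 2464 to 3254 in edited and 2175 to 2549 in control morulae. Of these, 2 rose, where 6.92% of all tested genes were higher. They were Pou5f1, by 1.40 (limma adjusted p = 1.86e-05), and Tdgf1, by 1.35 on the log2 scale (limma adjusted p = 0.000161). Sox2 differed by 1.04 and Nanog by -0.58 on that scale, and neither passed (limma adjusted p = 0.117 and 0.122). In cattle the 5 trophectoderm markers with a row summed to 8441 to 21450 in edited and 11093 to 21398 in control blastocysts. The inner cell mass markers summed to 224 to 577 in edited and 302 to 608 in control blastocysts. Of 10 markers of cumulus and granulosa cells, 2 had a row in the mouse table and 5 in the bovine table, with sums of 14.9 to 30.5 in edited and 8.85 to 14.5 in control morulae, and 11.02 to 35.2 in edited and 7.99 to 36.5 in control blastocysts. These are bulk libraries, in which fewer cells of a type and less RNA per cell cannot be told apart, and the part of cell type makeup in the results below was not tested.

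Cells meet amino acid shortage, viral RNA, heme deficiency or a loaded ER by phosphorylating the translation factor eIF2α, which slows protein synthesis in general while the mRNA of the transcription factor ATF4 is translated more. ATF4 then drives genes of amino acid synthesis and uptake and of feedback control. Misfolded protein in the ER lumen is sensed by PERK, which feeds the ATF4 arm, and by IRE1 (encoded by Ern1) and ATF6, which feed the ER folding arm of chaperones, disulfide isomerases and the machinery of ER-associated degradation. In preimplantation embryos ER stress has been studied mainly as a response to culture conditions.

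A pair of sequence features of the members bear on what a count of reads per gene can and cannot show. IRE1 acts by cutting the Xbp1 mRNA at a pair of hairpins and removing a short stretch, after which the spliced mRNA encodes the active factor. The mouse site lies in exon 4 of 5 of Xbp1 on the plus strand at chr11:5524282-5524307 (GRCm38, GENCODE annotation), and it was located in the coding sequence as a pair of matches to CNGCAGC, searched on the coding strand, placed 26 bases apart. Such a pair was found in 40 of 13618 coding sequences searched (0.294%). The removed 26 bases are in capitals with 12 bases of flank on each side, and they are shown because reads counted per gene do not separate the spliced from the unspliced form.
Xbp1: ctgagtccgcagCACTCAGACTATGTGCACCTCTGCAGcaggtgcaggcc

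Many proteins of the ER lumen carry a retrieval signal in their last residues, read by the KDEL receptors. The last 15 bases of the mouse coding sequence are shown for the 7 lumenal members of the folding arm and, for contrast, for Canx, whose product is held in the ER membrane, because they mark which products are retained in the lumen. Capitals mark the last 4 codons and lower case the stop codon.
Calr: AAGGATGAGCTGtag
Pdia4: AAGGAAGAGCTTtaa
Pdia6: AAGGATGAGTTGtga
Pdia3: CAAGAGGACCTCtaa
Sdf2l1: CACGATGAACTCtga
Creld2: CGTGAGGATTTGtga
Manf: CGGACTGATCTGtag
Canx: CCACGAAGAGAGtga

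Upstream start codons in the leader are the feature through which Atf4, Atf5, Ddit3 and Ppp1r15a are known to be translated more when eIF2α is phosphorylated. At least 1 ATG upstream of the annotated start was found in 9 of 15 ATF4-arm genes of the mouse table (60%), in 3 of 17 folding-arm genes (17.6%) and in 6983 of all 13336 genes with an annotated leader (52.4%). Ppp1r15a held 7, Atf4 and Ppp1r15b 3 each, and Atf5 and Ddit3 2 each. Median leader length was 198 bases in the ATF4 arm, 126 bases in the folding arm and 179 bases over all genes, and a longer leader holds an ATG more often. The values below are of RNA, and translation was not measured.

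In edited mouse morulae, 4 of 14 tested ATF4-arm genes rose and none fell, while 4 of 17 folding-arm genes fell and none rose. The 4 that rose were Ddit4, Nupr1, Trib3 and Phgdh, and the 4 that fell were Derl2, Creld2, Manf and Calr (limma on log2 values, adjusted over 11386 genes, threshold 0.05). Over all tested genes, 788 were higher (6.92%) and 954 were lower (8.38%). At an unadjusted limma p under 0.05, 5 ATF4-arm genes were higher and 2 lower, and 5 folding-arm genes were lower and none higher, where 28.6% of all tested genes were under it in either direction. That is 7 of 14 genes in the ATF4 arm and 5 of 17 in the folding arm, the share in the folding arm being near that of all genes. The median log2 fold change was 0.29 in the ATF4 arm, -0.26 in the folding arm and -0.0049 over all tested genes. Values did not overlap between the groups for 6 ATF4-arm genes that were higher and 2 that were lower, and for 2 folding-arm genes that were higher and 8 that were lower, where 28.6% and 29.2% of all genes did so upward and downward.

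These counts fell when either control library was left out. Leaving out control 1 and control 2 in turn gave log2 fold changes of -0.48 and -0.46 for Calr, against -0.47 with all 4 libraries. For Creld2 they were -0.56 and -0.76, against -0.66. Without control 1 the calls came to 2 in the ATF4 arm and 0 in the folding arm, and without control 2 to 1 and 0, while the number over all genes came to 580 and 601, against 1742 with all 4 libraries. Without edited 1 there were 3 ATF4-arm calls, of which 1, Ddit3, was lower, and 4 folding-arm calls. Without edited 2 there were 6 ATF4-arm calls, of which 1, Cebpb, was lower, and 3 folding-arm calls. Each of these fits leaves a group with 1 library, which is assumed to vary like the other group. When every library was instead scaled to the same total, the median of all genes moved to 0.16, 1277 genes were higher and 611 lower, and the folding arm kept 1 call, Derl2, while the ATF4 arm kept 4.

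**Figure D1:**
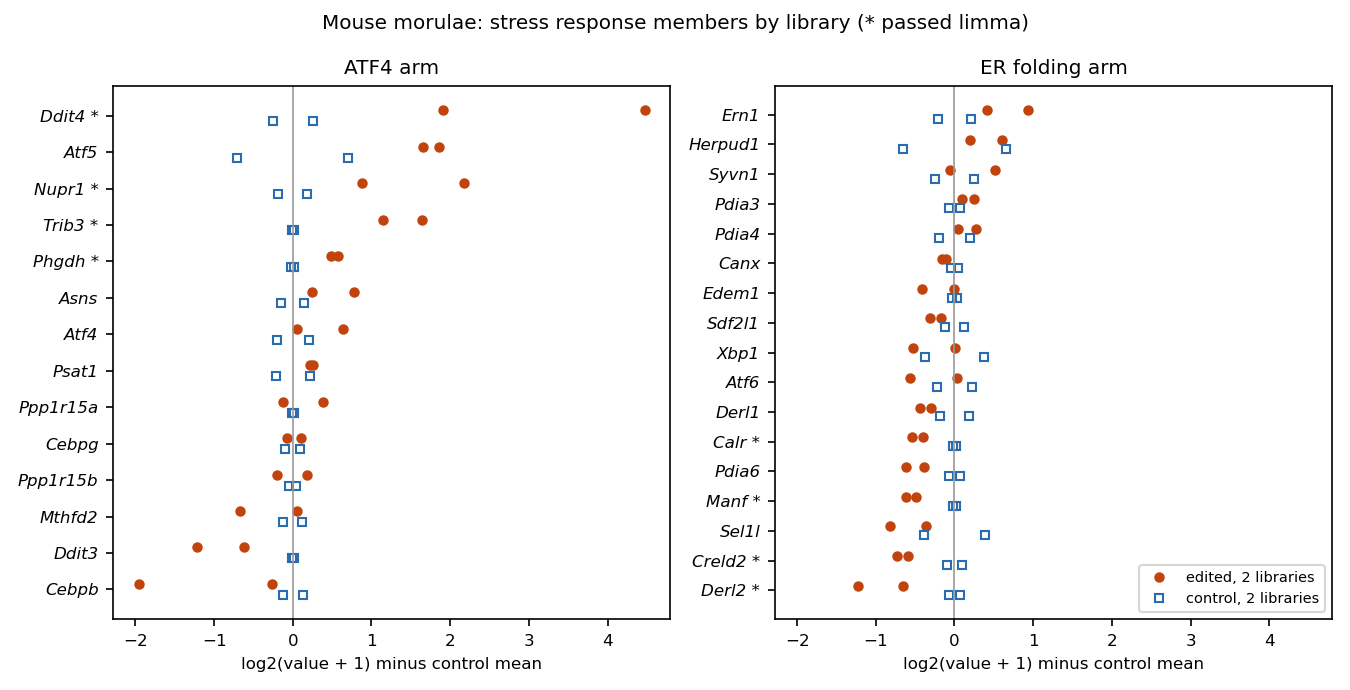
Each row is a member of the ATF4 arm (left) or the ER folding arm (right) in mouse morulae, and each point is the log2(value + 1) of 1 library minus the mean of the control libraries, with edited libraries as filled circles and control libraries as open squares (2 each). Ddit4, Nupr1, Trib3 and Phgdh lie right of their controls, and Derl2, Creld2, Manf and Calr lie left of theirs; an asterisk marks the members that passed limma.

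Among the transcription regulators of the ATF4 arm, Atf4 itself had 731 and 488 normalized reads in edited morulae, against 409 and 544 in control morulae. The groups overlapped, and the log2 difference of 0.34 ± 0.21 did not pass (limma adjusted p = 0.303), although without edited 2 it was 0.63 and passed (limma adjusted p = 0.0149). Ddit3, which encodes CHOP, a factor linked to cell death under prolonged stress, had 48.6 and 31.9 normalized reads in edited morulae, against 74.9 and 75.9 in control morulae. Both edited values lay below both control values, in the opposite direction to the arm's median, and the log2 difference of -0.92 ± 0.36 did not pass (limma adjusted p = 0.0831) except without edited 1 (-1.22, limma adjusted p = 0.0337). Mars overlaps Ddit3 by 68 bases on the opposite strand, and reads in that stretch cannot be told apart if counting ignored strand.

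Nupr1 (chr7:126623249-126630861, minus strand), a small stress-induced chromatin protein, had 141 and 56.7 normalized reads in edited morulae, against 34.6 and 26.6 in control morulae. The edited libraries lay above the controls but differed from each other more than the controls did. Nupr1 rose by a log2 fold change of 1.53 ± 0.40 (limma adjusted p = 0.0097), a call lost without edited 1 (0.88, limma adjusted p = 0.265) and without control 2 (limma adjusted p = 0.099). Atf5, an ATF4-related factor of mitochondrial stress, had 18.1 and 15.6 normalized reads in edited morulae, against 2.23 and 7.59 in control morulae. The lower control value is under the 3.35 to 3.79 normalized reads that 3 reads are worth in the control libraries, and the log2 difference of 1.76 ± 0.77 did not pass (limma adjusted p = 0.13). Cebpb, a partner of ATF4 in stressed cells, had 12.4 and 42.5 normalized reads in edited morulae, against 55.9 and 46.8 in control morulae. Its log2 difference of -1.11 ± 0.48 (limma adjusted p = 0.12) rested on edited 1, being -1.96 and past the threshold without edited 2 (limma adjusted p = 0.00191) and -0.26 without edited 1. Cebpg, which pairs with ATF4 at its target genes, was nearly level, with a log2 difference of 0.01. On the opposite strand, Tmem189 overlaps Cebpb by 908 bases, and Nup62 and Il4i1 overlap Atf5 by 571 and 272 bases. Reads in these stretches cannot be told apart if counting ignored strand.

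Ddit4 (chr10:59949669-59951834, minus strand) encodes REDD1, an inhibitor of the growth kinase complex mTORC1 that answers to ATF4, hypoxia and DNA damage. It had 1270.0 and 213 normalized reads in edited morulae, against 46.9 and 67.0 in control morulae. Edited 1 was far above edited 2, and both were above the controls. Ddit4 rose by 3.19 ± 0.43 on the log2 scale (limma adjusted p = 1.64e-05), with 1.90 without edited 1 and 4.48 without edited 2. It was the member that passed in each of the 4 fits without a library, and it lost its call under limma's robust variance option (limma adjusted p = 0.261), which allows single genes a larger variance. Vldlr, a lipoprotein receptor induced by ATF4 under ER stress, had 8.58 and 4.25 normalized reads in edited morulae, against 13.4 and 3.79 in control morulae, and was too low to test.

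The feedback regulators of the arm restrain it once it is active. Trib3 (chr2:152337422-152344032, minus strand), a pseudokinase that binds and restrains ATF4 and CHOP, had 76.3 and 53.9 normalized reads in edited morulae, against 23.5 and 24.0 in control morulae. Both edited libraries were well above the closely matching controls, and Trib3 rose by 1.40 ± 0.40 on the log2 scale (limma adjusted p = 0.0182). Leaving out control 1, control 2 or edited 1 ended the call, with limma adjusted p of 0.101, 0.0898 and 0.154. Ppp1r15a and Ppp1r15b, which bring the phosphatase to eIF2α, the first on stress and the other at all times, differed by 0.13 and -0.01 on the log2 scale and did not pass.

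Of the enzymes of amino acid and one-carbon metabolism, Phgdh (chr3:98313170-98339990, minus strand), which takes the opening step of serine synthesis, had 2348 and 2508 normalized reads in edited morulae, against 1706 and 1657 in control morulae. The libraries of each group lay close together and the groups were apart. Phgdh rose by 0.53 ± 0.16 on the log2 scale (limma adjusted p = 0.0256), without control 1 or control 2 with limma adjusted p of 0.194 and 0.229. Asns, asparagine synthetase, had 141 and 204 normalized reads in edited morulae, against 132 and 108 in control morulae, a log2 difference of 0.51 that did not pass (limma adjusted p = 0.214). Psat1, which acts after Phgdh in serine synthesis, and Mthfd2, the mitochondrial folate enzyme, differed by 0.23 and -0.31 on the log2 scale and did not pass.

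In the folding arm the sensors and their transducer did not pass. Xbp1 had 184 and 266 normalized reads in edited morulae, against 345 and 204 in control morulae (log2 difference -0.26, limma adjusted p = 0.545), with 1 edited value between the controls and the other just below both. Atf6 had 98.2 and 64.5 normalized reads in edited morulae, against 113 and 82.2 in control morulae (-0.27, limma adjusted p = 0.612). Ern1 had 25.7 and 17.7 normalized reads in edited morulae, against 11.2 and 15.2 in control morulae (0.67, limma adjusted p = 0.472), with both edited values above the controls at low depth. The site removed by IRE1, shown above, was not resolved by these gene-level values.

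Among the chaperones and disulfide isomerases, 4 of 6 had lower values in both edited libraries than in either control library, as did 29.2% of all tested genes. Calr (chr8:84841850-84846934, minus strand), calreticulin, a lectin chaperone that binds calcium, had 2102 and 1904 normalized reads in edited morulae, against 2746 and 2799 in control morulae. It fell by 0.47 ± 0.16 on the log2 scale (limma adjusted p = 0.0465), the call nearest to the threshold. Among the settings that ended the call were fits without either control library (limma adjusted p = 0.268 and 0.292), without edited 2 (0.0809), with edgeR on recovered reads (edgeR adjusted p = 0.0589), with no filter (limma adjusted p = 0.0639) and at the same total per library (0.166). Pdia6, a disulfide isomerase that also tunes IRE1, had 659 and 562 normalized reads in edited morulae, against 822 and 903 in control morulae, a log2 difference of -0.50 that did not pass (limma adjusted p = 0.064) except without edited 1 or with a filter at 50 normalized reads (limma adjusted p = 0.0212 and 0.049). Canx, the membrane lectin chaperone, and Sdf2l1, a co-factor of the chaperone BiP, differed by -0.14 and -0.24 on the log2 scale, and the isomerases Pdia3 and Pdia4 by 0.17 and 0.16, and none of these 4 passed. The direction of Canx turned at the same total per library, to 0.04, and that of Sdf2l1 with the length trend removed, to 0.05. That of Pdia4 turned with a library left out, to -0.04.

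Both small secreted or lumenal stress proteins fell, where 8.38% of all tested genes were lower. Creld2 (chr15:88819646-88826683, plus strand), a disulfide isomerase-like protein induced by ER stress, had 465 and 420 normalized reads in edited morulae, against 748 and 654 in control morulae. Manf (chr9:106838312-106891979, minus strand), a secreted factor that stabilises BiP with its clients, had 805 and 885 normalized reads in edited morulae, against 1255 and 1223 in control morulae. The groups did not overlap for either gene, and 29.2% of all tested genes were likewise lower without overlap. Creld2 fell by 0.66 ± 0.19 (limma adjusted p = 0.0182) and Manf by 0.55 ± 0.17 on the log2 scale (limma adjusted p = 0.0292). Without control 1 or control 2 the limma adjusted p was 0.272 and 0.111 for Creld2 and 0.254 and 0.207 for Manf, and at the same total per library it was 0.0718 and 0.105. Manf also lost its call without edited 1 (limma adjusted p = 0.0674), and Creld2 once a trend with transcript length was removed (limma adjusted p = 0.0962). Manf overlaps the genes Dcaf1 and Rbm15b in the annotation, so its reads could be shared with theirs.

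ER-associated degradation draws misfolded proteins out of the ER for the proteasome. Of its 6 genes in the arm, 1 fell, where 8.38% of all tested genes were lower. Derl2 (chr11:71007164-71019841, minus strand), a derlin of the retrotranslocation channel, had 171 and 254 normalized reads in edited morulae, against 420 and 381 in control morulae. The edited libraries lay below the controls with a clear gap, and Derl2 fell by 0.94 ± 0.23 on the log2 scale (limma adjusted p = 0.00577). Leaving out control 1 (limma adjusted p = 0.125) or control 2 (limma adjusted p = 0.0643) ended the call, and Mis12 overlaps it on the opposite strand. The other 5 did not pass. Derl1, the ubiquitin ligase Syvn1 and its partner Sel1l differed by -0.37, 0.23 and -0.59 on the log2 scale. The mannosidase-like Edem1 and the membrane organiser Herpud1 differed by -0.21 and 0.40. With a library left out, Syvn1 came as low as -0.06 and Herpud1 as low as -0.25.

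Read per library, the difference between the arms had the same direction in both edited morula libraries. The median member shift from the control mean was 0.31 in the ATF4 arm and -0.39 in the folding arm of edited 1, and 0.14 and -0.18 in edited 2. Control 1 had 0.0016 and 0.07, and control 2 had -0.0016 and -0.07. The control values mirror each other by construction, because the mean of these same controls was subtracted for each gene. That mean was also subtracted from both edited libraries, so their shared direction does not come from independent comparisons. The arms were chosen with earlier results of these data known. Edited 1 held the higher edited value for 10 of 14 ATF4-arm genes, and control 1 the higher control value for 12 of 17 folding-arm genes. The median of the ATF4 arm minus that of the folding arm was 0.55 on the log2 scale, with 0.23 when edited 1 was left out. Median transcript length was 2770 bases over the 17 listed folding-arm genes and 1984 bases over the 17 listed ATF4-arm genes, untested ones included. With a trend with transcript length removed, the difference of arm medians was 0.56. The part of transcript length in the difference was not tested.

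**Figure D2:**
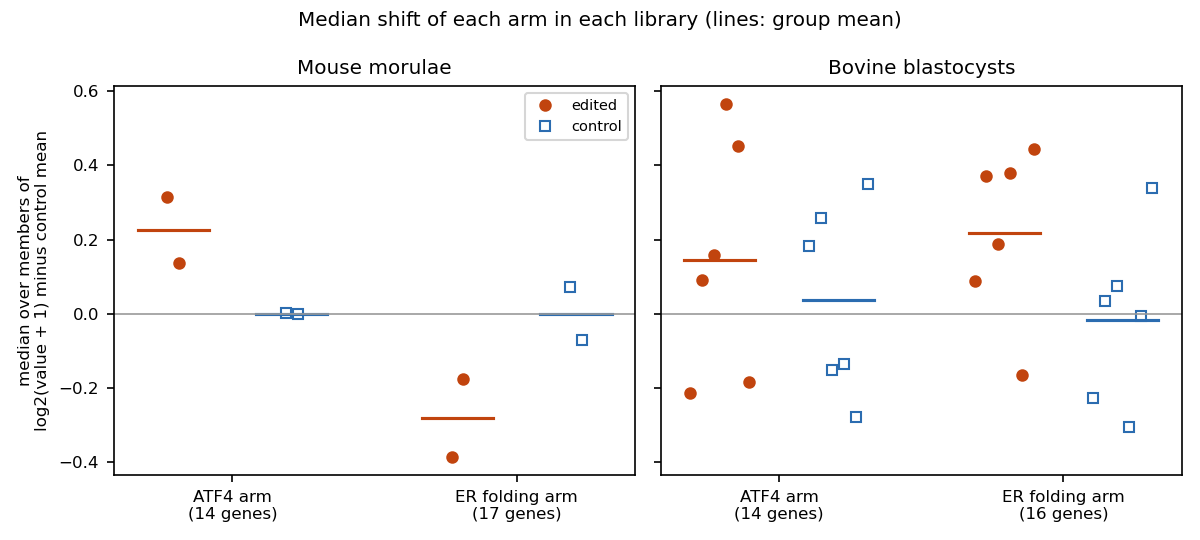
Each point is 1 library, placed by the median over the tested members of an arm of log2(value + 1) minus the control mean, with horizontal lines at group means, for mouse morulae (left) and bovine blastocysts (right). In mouse the edited libraries lie above the controls in the ATF4 arm (0.31 and 0.14) and below them in the folding arm (-0.39 and -0.18), while the bovine groups overlap in both arms. The mouse controls mirror each other by construction, because their own mean was subtracted.

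The other genes of these pathways were taken from lists of their own. Of 12 tested further ATF4 targets, 2 rose in edited morulae and none fell, where 6.92% of all genes were higher and 8.38% lower. Sesn2, a leucine sensor that restrains mTORC1, had 444 and 272 normalized reads in edited morulae, against 92.7 and 120.2 in control morulae, and rose by 1.71 ± 0.26 on the log2 scale (limma adjusted p = 5.9e-05). Slc3a2, the shared heavy chain of amino acid exchangers, rose by 0.69 (limma adjusted p = 0.00874), a call lost without either control library (limma adjusted p = 0.0579 and 0.205). None of 3 tested eIF2α kinases passed or had an unadjusted limma p under 0.05. Of 8 tested subunits of eIF2 and its exchange factor eIF2B, 2 fell, beside the 8.38% of all genes that were lower. They were Eif2b5, by 0.76 (limma adjusted p = 0.00479), and Eif2s2, by 0.74 on the log2 scale (limma adjusted p = 0.00225). Without control 2 both were past the threshold no longer (limma adjusted p = 0.0739 and 0.0605), and without control 1 Eif2b5 was not (0.115).

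Of 16 tested further ER chaperones and folding genes, 6 were lower and none higher in edited morulae, beside the 8.38% of all genes that were lower. At the same total per library, without control 1 and without control 2, Hsp90b1 was the one of the 6 that kept its call. Hsp90b1, the ER form of HSP90, had 1229 and 977 normalized reads in edited morulae, against 2079.6 and 1963 in control morulae, and fell by 0.88 ± 0.17 on the log2 scale (limma adjusted p = 0.000888). Dnajc3, a co-chaperone that also inhibits eIF2α kinases, fell by 0.91 (limma adjusted p = 0.0164) and Ppib, an ER prolyl isomerase, by 0.75 (limma adjusted p = 0.0404). Hspa5, which encodes BiP and was picked out here after its values were seen, had 2011 and 2103 normalized reads in edited morulae, against 2846 and 2880.0 in control morulae, and fell by 0.48 on the log2 scale (limma adjusted p = 0.0414). Without control 1 or control 2 the limma adjusted p was 0.22 and 0.101 for Dnajc3, 0.255 and 0.22 for Ppib, and 0.262 and 0.274 for Hspa5, and at the same total it was 0.0502, 0.109 and 0.141. The call of Ppib was also lost without edited 1 (limma adjusted p = 0.144), with no filter (0.0641), with edgeR (edgeR adjusted p = 0.0536), with DESeq2 (DESeq2 adjusted p = 0.0773) and with the length trend removed, where its log2 difference was -0.35 (limma adjusted p = 0.341). That of Hspa5 was also lost without edited 1 (limma adjusted p = 0.0713) and with no filter (0.0564).

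Of 15 tested further genes of ER-associated degradation, Ube2g2, a ubiquitin-conjugating enzyme, rose by 0.96 (limma adjusted p = 0.0227), with limma adjusted p of 0.239 without control 1, 0.0757 without control 2 and 0.0621 without edited 1. Selk, a selenoprotein of the ER membrane that binds derlins, had 389 and 458 normalized reads in edited morulae, against 853 and 902 in control morulae. It fell by 1.05 ± 0.19 on the log2 scale (limma adjusted p = 0.000371). Ube2g2 and Selk were the calls among the 15 genes, 1 higher and 1 lower, beside 6.92% and 8.38% of all genes. Among 5 tested ER stress proteases and CREB3 factors, 2 rose and none fell, where 6.92% of all genes were higher and 8.38% lower. Atf6b, a paralog of Atf6, had 295 and 225 normalized reads in edited morulae, against 114 and 110.0 in control morulae. It rose by 1.2 ± 0.25 on the log2 scale (limma adjusted p = 0.00165). Mbtps1, the site-1 protease that cleaves ATF6, rose by 1.03 (limma adjusted p = 0.00592), a call lost without control 1 (limma adjusted p = 0.124). Sesn2, Hsp90b1, Selk and Atf6b passed in each of the 4 fits that left out a library.

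In bovine blastocysts none of the 30 tested members passed, 14 of the ATF4 arm and 16 of the folding arm. Over all 8884 tested genes, none was higher (0%) and 1 was lower (0.0113%) by limma, and no member passed by edgeR or DESeq2 on recovered reads. No member had groups without overlap, in a table where 0.09% of genes did so upward and 0.158% downward. At an unadjusted limma p under 0.05, 2 ATF4-arm and 3 folding-arm genes stood out, where 5.88% of all tested genes did. The median log2 difference was 0.17 in the ATF4 arm, 0.21 in the folding arm and 0.01 over all genes. Of the folding arm, 13 of 16 lay above 0, with 51.5% of all genes, and so did 8 of 14 of the ATF4 arm.

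**Figure D3:**
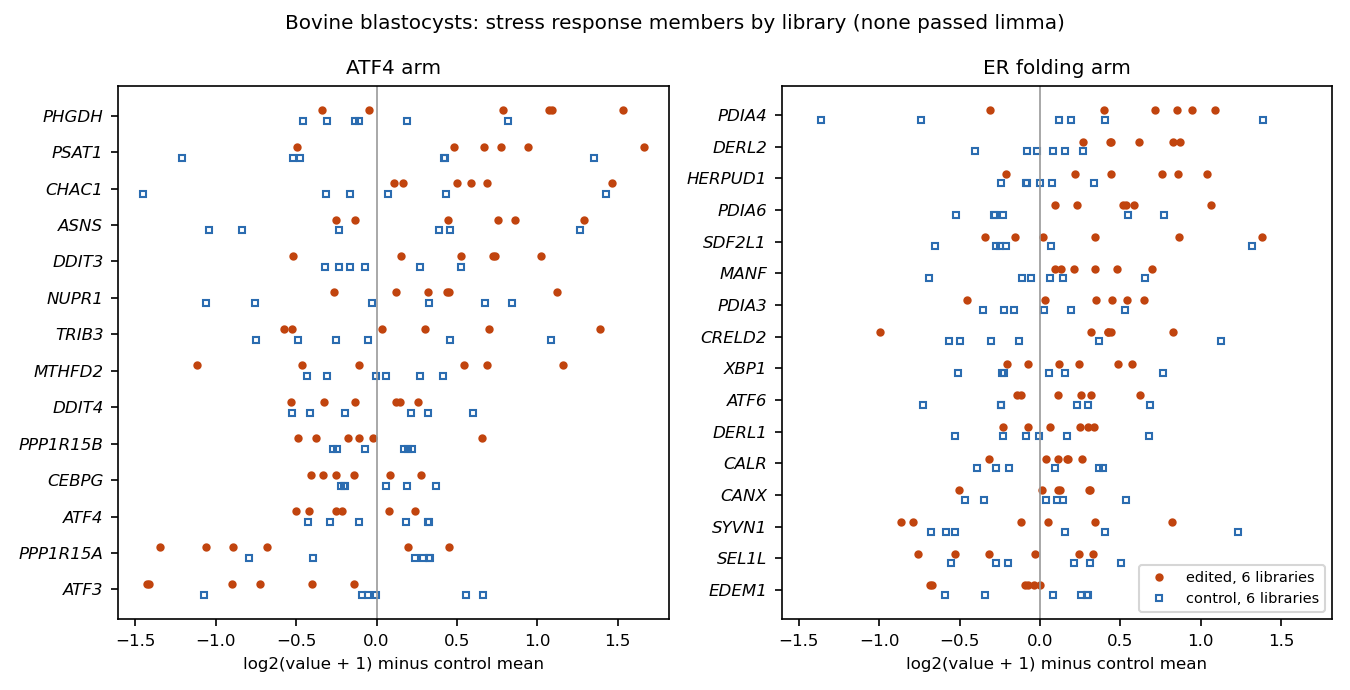
Each row is a member of the ATF4 arm (left) or the ER folding arm (right) in bovine blastocysts, and each point is the log2(value + 1) of 1 library minus the mean of the 6 control libraries, with 6 edited libraries as filled circles and 6 control libraries as open squares. Edited and control points overlap in each row, and DERL2 has 5 of 6 edited libraries above the highest control.

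ATF4 had a lowest, median and highest value of 507, 611 and 846 normalized reads in edited blastocysts, against 534, 740.2 and 900.3 in control blastocysts. The groups overlapped widely, with a log2 difference of -0.18 (95% interval -0.55 to 0.20). ATF3, a repressor induced early in stress that had no row in the mouse table, had a lowest, median and highest value of 14.1, 22.1 and 35.6 normalized reads in edited blastocysts, against 18.3, 38.7 and 63.0 in control blastocysts. Its values ran lower in the edited libraries but overlapped with the controls, and the log2 difference of -0.84 ± 0.30 did not pass (limma adjusted p = 0.792). DDIT3 had 21.4, 48.5 and 64.3 normalized reads in edited blastocysts, against 24.6, 28.5 and 45.2 in control blastocysts, and 3 edited libraries lay above each control library. Its log2 difference was 0.44 (95% interval -0.10 to 0.98), and that of NUPR1 was 0.36.

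DDIT4 had a lowest, median and highest value of 44.7, 65.3 and 78.3 normalized reads in edited blastocysts, against 45.1, 66.4 and 99.5 in control blastocysts. The groups covered nearly the same range, with a log2 difference of -0.08 (95% interval -0.55 to 0.39). TRIB3 differed by 0.22, PPP1R15A by -0.56 and PPP1R15B by -0.09 on the log2 scale. All 5 amino acid and one-carbon enzymes lay above 0, as did 51.5% of all genes, with log2 differences of 0.12 to 0.68. With a library left out, MTHFD2 came as low as -0.09. PHGDH had 64.8, 159 and 239.8 normalized reads in edited blastocysts, against 59.8, 75.6 and 146 in control blastocysts, and 3 edited libraries lay above each control library. It differed by 0.68 on the log2 scale and did not pass (limma adjusted p = 0.792). The 5 members past the unadjusted threshold were ATF3, PHGDH, HERPUD1, PDIA6 and DERL2, and all but ATF3 are described for that reason, after their values were seen.

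Of the sensors and transducer, XBP1 had a lowest, median and highest value of 95.8, 126 and 166 normalized reads in edited blastocysts, against 77.4, 105 and 189 in control blastocysts, with a log2 difference of 0.19 (95% interval -0.26 to 0.64). ATF6 had 61.9, 78.1 and 106 normalized reads in edited blastocysts, against 41.1, 69.3 and 111 in control blastocysts, with a log2 difference of 0.17. ERN1 averaged 9.01 ± 3.67 normalized reads in edited and 9.87 ± 2.54 in control blastocysts (SD, n = 6 each) and was not tested. For each of these 3 the edited range overlapped that of the controls.

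All 6 chaperones and isomerases lay above 0, as did 51.5% of all genes, with log2 differences of 0.06 to 0.61, and none passed. With a library left out, CALR came as low as -0.0051 and CANX as low as -0.03. PDIA6 had a lowest, median and highest value of 444, 599.6 and 873 normalized reads in edited blastocysts, against 289, 349 and 713 in control blastocysts, a log2 difference of 0.50 that did not pass (limma adjusted p = 0.792). MANF had 247, 280.3 and 375 normalized reads in edited blastocysts, against 143, 232 and 364 in control blastocysts, with a log2 difference of 0.32. DERL2 had 90.8, 109 and 139 normalized reads in edited blastocysts, against 56.6, 77.0 and 90.8 in control blastocysts. Its 5 higher edited libraries lay above each control library, yet the log2 difference of 0.58 ± 0.18 did not pass among 8884 genes (limma adjusted p = 0.792). HERPUD1 differed by 0.52, EDEM1 by -0.26, SEL1L by -0.18 and SYVN1 by -0.09 on the log2 scale. Per library, the arm medians ran from -0.21 to 0.57 in edited and from -0.28 to 0.35 in control blastocysts for the ATF4 arm, and from -0.16 to 0.44 in edited and from -0.31 to 0.34 in control blastocysts for the folding arm. The median of the ATF4 arm minus that of the folding arm was -0.05 on the log2 scale, with a standard deviation of 0.36 between libraries of a group. Its sign turned with edgeR and with DESeq2 (0.09 each) and with a filter at 50 normalized reads (0.03). It also turned with some libraries left out, up to 0.12 without edited 1.

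The log2 fold changes of mouse and cattle were then tested against each other for the 28 members measured in both, with p-values adjusted over all 7073 shared genes, of which 429 differed (6.07%). Species and stage go together in this comparison, morulae against blastocysts, and cannot be told apart. The log2 difference of the targeted gene was -2.86 in mouse and -1.25 in cattle, and its part in the comparison was not tested. For 4 members the mouse minus bovine difference passed. Ddit4 differed by 3.27 ± 0.49 (limma-based adjusted p = 3.1e-05), Derl2 by -1.51 ± 0.29 (0.000723), Pdia6 by -1.01 ± 0.29 (0.0305) and Manf by -0.88 ± 0.26 (0.0357). Ddit3 did not pass, at -1.36 (limma-based adjusted p = 0.0553), and neither did Nupr1, Trib3 or Calr, with adjusted p of 0.161, 0.191 and 0.162. Phgdh and Asns had nearly equal values in both species, 0.53 and 0.51 in mouse and 0.68 and 0.49 in cattle. In the folding arm 10 of 16 genes lay below 0 in mouse and above 0 in cattle, with 28.0% of all shared genes, and 5 had the same sign. Among these 10, Xbp1, Atf6, Canx and Sdf2l1 took both signs over the alternatives in mouse, and CALR and CANX in cattle. In the ATF4 arm 6 of 12 had the same sign, where 49.0% of all shared genes did.

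**Figure D4:**
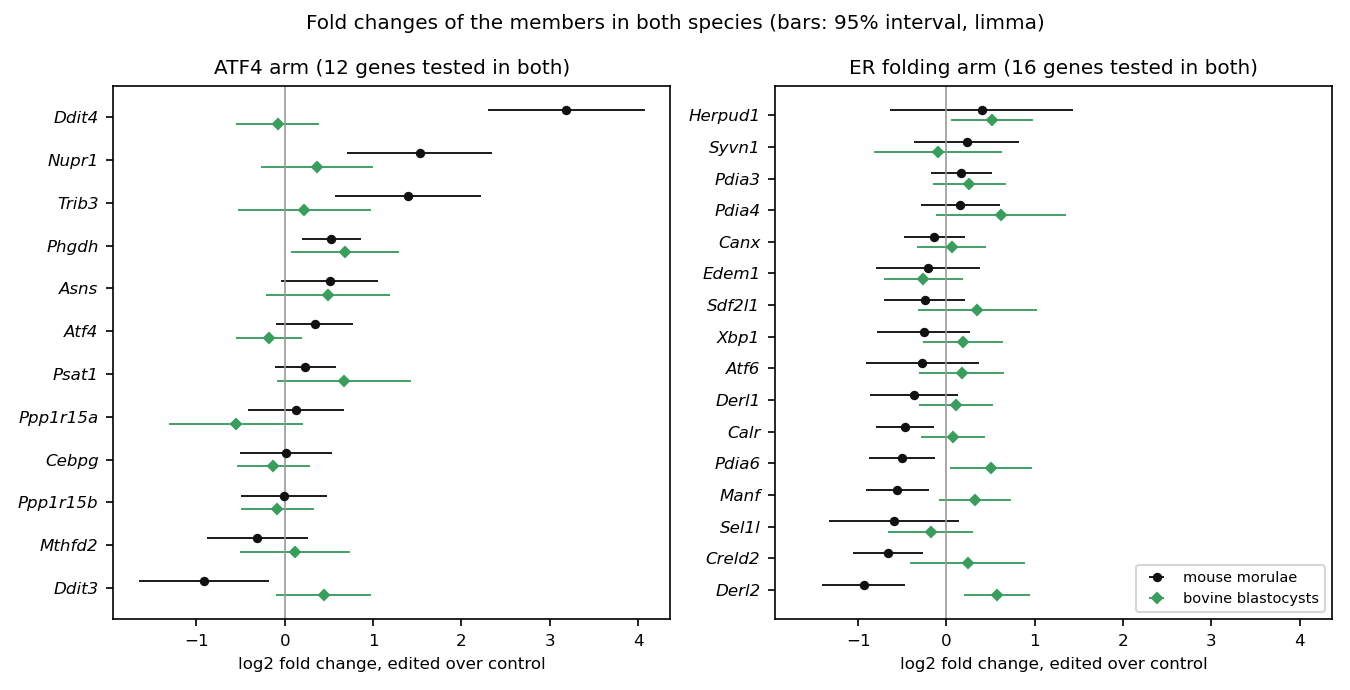
Log2 fold changes, edited over control, of the members tested in both species, with 95% limma intervals, for mouse morulae (black circles) and bovine blastocysts (green diamonds), with the ATF4 arm left and the ER folding arm right. The intervals lie apart for Ddit4 (3.19 in mouse and -0.08 in cattle), Derl2 (-0.94 in mouse and 0.58 in cattle), Pdia6, Manf and Ddit3, of which Ddit3 did not pass the test of the difference.

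In the authors' deposited table, 3 mouse ATF4-arm genes were higher at an adjusted p under 0.05 (Phgdh, Nupr1 and Ddit4), 4 folding-arm genes were lower (Derl2, Creld2, Manf and Calr), and no bovine member passed. The authors' deposited table held 564 higher and 755 lower genes in mouse, and 0 higher and 3 lower in cattle. In the mouse annotation, 17 of the 34 members overlap another annotated gene, 14 of them on the opposite strand and 9 with a protein-coding gene. Whether counting used strand is not given in the sources used here, and the values of those members are uncertain to the extent that reads were shared.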

How the data were processed

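Per the submitters' processing notes, reads were handled with Trimmomatic, HISAT2, featureCounts and DESeq2, with the builds mm10 and ARS-UCD1.2; versions, gene annotation and strand setting are not given in the sources used here. Each species has 1 deposited table of signal values, which are read counts per gene divided by the authors' DESeq2 size factor for each library, per the file headers, and the values are whole multiples of 1 unit per library. Whole reads were recovered from them for depth and for count tests (100% of values whole within 0.05 reads). The authors' log2 fold changes and p-values, per the file headers, were only quoted or counted, and the authors' test statistic, a score, was not used.

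Samples were grouped by the labels' treatment, and 0 columns were left without a sample. Log2(value + 1) was tested in each species apart, edited minus control, two-sided, with limma 3.58.1 (trend; R 4.3.3) over genes whose mean reached 10 normalized reads, with Benjamini-Hochberg adjustment over all of them and a threshold of 0.05. For low genes this log scale gives too small a fold change. The species difference used both limma estimates with Satterthwaite degrees of freedom. Alternatives were pseudocounts of 0.5 and 5, no filter, a filter at 50, edgeR 4.0.16 and DESeq2 1.42.0 on recovered reads, robust limma, equal totals without the most abundant feature, a replicate block, removal of a length trend (span 0.5, mouse) and leaving out each library. Scripts were tested on simulated data. A count of 3 reads was taken as the floor, worth 2.13 to 2.86 normalized reads in edited and 3.35 to 3.79 in control morulae, and 1.72 to 5.56 in edited and 1.71 to 4.62 in control blastocysts; floors and intervals cover counting error or the spread of these samples only.

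The members, the arms and the other lists were chosen with earlier results of these data known. Sample values are given for members that passed, for those with an absolute log2 difference of at least 0.8, and for Atf4, Ddit3, Atf3, Xbp1, Atf6 and Ern1; of the other lists, up to 3 genes per direction. Outside this rule, values of Asns, Pdia6, Vldlr and Hspa5 in mouse and of DDIT4, MANF and the members with a low unadjusted p in cattle were added after they were seen. Mouse positions and sequences come from the GENCODE annotation of GRCm38, which matched 89.1% of names in the table; promoter sequences were not used here.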

Additional observations from a re-analysis of the deposited data

Results flagged for a closer look

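Among bovine blastocysts, 3 of 60 member-by-group sets of 6 libraries held a value far from the others, and about 1 in 20 such sets does so by chance. CANX had 660 normalized reads in edited 5, below the other edited libraries. CRELD2 had 22.6 normalized reads in edited 3, the lowest of the edited libraries, and SDF2L1 had 127 normalized reads in control 6, the highest of the controls. Control 6 held the highest control value for 7 of 16 folding-arm and 6 of 14 ATF4-arm members.

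The effect of editing differed between mouse morulae and bovine blastocysts for 4 members, by the test of the difference of log2 fold changes. The mouse minus bovine differences were 3.27 for Ddit4, -1.51 for Derl2, -1.01 for Pdia6 and -0.88 for Manf. Stage and species go together, and the log2 difference of the targeted gene was -2.86 in mouse and -1.25 in cattle. What sets the differences of these members cannot be told apart.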

How the results depend on the processing

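No called member turned its direction under any alternative run, while 11 of 31 tested members in mouse and 6 of 30 in cattle, none of them called, took both signs over the alternatives. The bovine difference of arm medians, -0.05, ran from -0.15 to 0.12 with a library left out. It was 0.09 with edgeR and with DESeq2, and 0.03 with a filter at 50 normalized reads. The mouse folding arm had 4 calls, and 1 at the same total per library. Leaving out 1 mouse library in turn gave 1 to 6 ATF4-arm calls, 0 to 4 folding-arm calls, a difference of arm medians of 0.23 to 0.64 and 580 to 2588 genes over the table. Over all genes, removal of a length trend gave 1143 mouse calls, and DESeq2 gave 5 bovine calls, against 1 by limma and by edgeR. On recovered reads edgeR called 1670 mouse genes and DESeq2 1354, against 1742 by limma. The cause was not tested. With the replicate number as a block, mouse calls were 4 in the ATF4 arm, 3 in the folding arm and 1816 over all genes, and the difference of arm medians was 0.55. Same-numbered samples correlated in their deviations at 0.106 in mouse (2 pairs) and between -0.193 and 0.335 in cattle, and 2 of 2 edited samples in mouse and 1 of 6 in cattle matched their own number best; the labels tie the numbers to no shared source, so they were not taken as pairing samples. The block ended the calls of Calr (limma adjusted p = 0.0654), Hspa5 (0.0595) and Dnajb11 (0.0544). Bovine arms had 0 calls in each alternative. The species difference was rerun with pseudocounts of 0.5 and 5 and a filter at 50, and under no other alternative. It was called for 420 and 487 of 7073 shared genes with these pseudocounts. With the filter it was called for 374 of 3410, against 429 of 7073 in the main run. With 2 libraries a group, mouse values resolve large differences, and low members such as Atf5, Vldlr and ERN1 lie near the depth limit.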

Other observations

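Outside the members, 4 genes of the pathway lists had the lowest unadjusted p in bovine blastocysts, picked out after their values were seen, and none passed after adjustment (limma adjusted p = 0.792 for each). HSPA5, which encodes BiP, differed by 0.66 on the log2 scale, and DNAJB9, a BiP co-chaperone, by 0.64. PYCR1, an enzyme of proline synthesis, and SLC3A2, the heavy chain of amino acid exchangers, differed by 0.96 and 0.62 on that scale. In mouse, Hspa5 fell by 0.48 and Slc3a2 rose by 0.69 on the log2 scale.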
